A study of Homo sapiens with 6 samples.

Results

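In cells of the G401 line kept without SMARCB1, 337 H3K27ac contact anchors were 20000 bp wide or more. These broad anchors were chosen by width at day 0 alone. Overlapping anchors of both day 0 libraries (1 bp was enough) were merged into 8663 regions, and those of at least 20000 bp were kept, which was 3.89% of the regions and 15.1% of the bases in them. Their median width was 26365 bp and the widest spanned 67208 bp. Each one was then followed by 1 bp overlap into the day 3 libraries, and its width, its contacts and its partners were recorded there.

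HiChIP joins DNA segments that lie close together in the nucleus, enriches those carrying a chosen protein or histone mark, and reads both ends of each joined fragment. Each read pair is a paired-end tag (PET), and a loop is a pair of anchors with the number of PETs that join them. The cells were G401, an established line from a human rhabdoid tumour without SMARCB1, in a stable derivative in which doxycycline switches SMARCB1 on. The 3 groups, with 2 libraries each, were ARID1A at day 3 of 1 μg/ml doxycycline (genotype labelled SMARCB1 +/+), H3K27ac at day 3 of the same treatment (SMARCB1 +/+), and H3K27ac at day 0 (SMARCB1 -/-). From day 0 to day 3 SMARCB1, doxycycline and culture time all changed, and their parts cannot be told apart.

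H3K27ac is an acetyl mark on histone H3 found at active enhancers and promoters. Wide or closely spaced stretches of it are often called super-enhancers and tend to lie near genes that define a cell's identity. SMARCB1 and ARID1A are both subunits of SWI/SNF, the ATP-driven chromatin remodelling complex, and loss of SMARCB1 is the hallmark of rhabdoid tumours. ARID1A belongs to the canonical BAF form of the complex, which acts mainly at enhancers.

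The libraries held 435210 and 467487 listed PETs for ARID1A, 929128 and 982141 for H3K27ac at day 3, and 301703 and 253502 for H3K27ac at day 0. The labels do not tie replicates to separate cultures, and p-values here reflect only the spread between libraries, which may be technical. Over the day 0 regions, the ARID1A libraries differed by no more than sampling noise, with a chi-square of 1.00 per degree of freedom, and may be parts of 1 library. The same value was 1.08 for H3K27ac at day 3 and 1.15 for H3K27ac at day 0. Anchors appear to have been called separately in each group, so where a group has no anchor over a region its contacts there went unmeasured, and the count of 0 is set by that calling. No hg19 gene annotation was used here, and regions are named by hg19 band and by coordinates as the files give them.

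The broad anchors were spread over 204 bands. On chromosome 8, 7.34% of day 0 anchors were broad (21 of 286), on chromosome 4 6.13% (19 of 310) and on chromosome 15 5.96% (19 of 319). The shares were 1.23% on chromosome 19 and 1.11% on chromosome 16. Bands 7p15.2 and 1p22.2 held 7 and 6 of them, the highest counts. The nearest other broad anchor lay a median of 320.6 kb away, although 137 of the 337 (40.7%) had one within 100 kb. The nearest day 0 anchor of any width lay a median of 5.35 kb away.

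The 20000 bp limit did not mark a gap in the widths. The 5 regions just inside it measured 20000 to 20110 bp and the 5 just outside it 19820 to 19976 bp. Those just inside had 79 to 606 PETs in day 0 replicate 1 and those just outside had 60 to 315. All 337 were single anchors in the deposited lists, and merging widened none. Width and day 0 PETs were only loosely related across them (Spearman's rho 0.33, n = 337, a description, since wider regions also take up more bases).

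By day 3 most of the broad anchors were still called, but a larger share of them were without an anchor than of the next narrower class. Of the 337, 236 (70.0%) overlapped anchors of both ARID1A and H3K27ac at day 3, 36 (10.7%) overlapped an ARID1A anchor only, 48 (14.2%) an H3K27ac anchor only, and 17 (5.04%) neither. Thus 53 had no day 3 H3K27ac anchor at all, which is 15.7% (95% Wilson interval 12.2 to 19.997). Among all 8663 day 0 anchors 782 had none, which is 9.03% (8.44 to 9.65), and among the 993 of 10 to 20 kb, the class with the lowest share, 41 had none, which is 4.13% (3.06 to 5.55). The interval of the broad anchors overlapped neither. Within the broad anchors the share without a day 3 H3K27ac anchor was 22.5% (15.7 to 31.1) of the 111 of 30 to 50 kb and 12.2% (8.49 to 17.1) of the 222 of 20 to 30 kb. The Wilson intervals cover counting error only, and regions are not replicates.

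The share without an ARID1A anchor was close to that of all day 0 anchors, at 19.3% (65 of 337, interval 15.4 to 23.8) of the broad anchors and 20.6% (19.8 to 21.5) of all 8663. It was lowest, at 8.46% (6.88 to 10.4), in the class of 10 to 20 kb. The narrowest anchors differed between the antibodies, since 25.8% of those under 5 kb had no ARID1A anchor while 9.60% had no day 3 H3K27ac anchor. Taken from the other time point, 34 of the 723 day 3 H3K27ac anchors of 20000 bp or more (4.70%, interval 3.38 to 6.50) had no day 0 anchor. Broad anchors were therefore left without an overlapping anchor more often going from day 0 to day 3 than from day 3 to day 0, and the day 3 list is also the longer, with 17421 merged anchors against 8663 at day 0. The part that called widths and list lengths play in this was not tested.

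**Figure D1:**
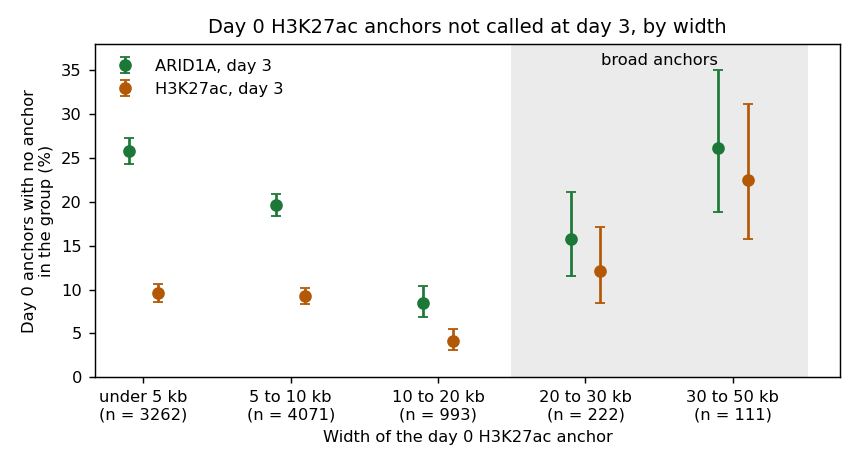
Percent of day 0 H3K27ac anchors that overlap no ARID1A anchor (green) and no day 3 H3K27ac anchor (orange), by width of the day 0 anchor, with 95% Wilson intervals. The points are lowest at 10 to 20 kb and higher in both shaded classes, and the 4 anchors of 50 kb or more are not drawn.

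Where an H3K27ac anchor was called at day 3, it usually covered the whole broad anchor. Day 3 H3K27ac anchors covered 90% or more of the bases of 247 broad anchors, 53 were not covered at all, and the median was 98.0%. ARID1A anchors covered 90% or more of 165, with a median of 89.6%. A single ARID1A anchor of 20000 bp or more lay over 193 (57.3%), and a day 3 H3K27ac anchor of that size over 260 (77.2%). ARID1A anchors split 107 of the broad anchors into 2 or more pieces, while H3K27ac anchors at day 3 split 42.

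Called widths changed in both directions. The longest day 3 H3K27ac anchor was more than 25% wider than the day 0 anchor at 92 broad anchors, more than 20% narrower at 27 and between these at 165, with a median ratio of 1.11 over those with an anchor. For ARID1A the counts were 72, 86 and 114, with a median of 1.01. Coverage by H3K27ac at day 3 and coverage by ARID1A were barely related across the 337 (Spearman's rho 0.18, a description).

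**Figure D2:**
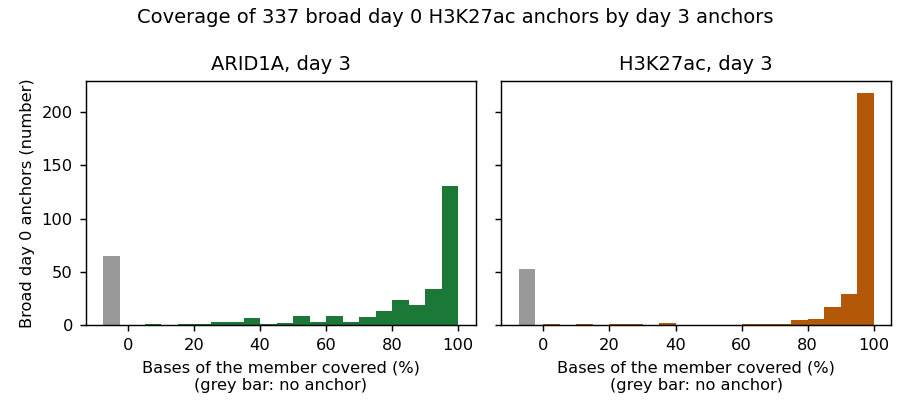
Number of broad day 0 H3K27ac anchors by the percent of their bases covered by ARID1A anchors (left) and by day 3 H3K27ac anchors (right), in steps of 5 percentage points. Grey bars give the 65 and the 53 with no anchor, and the orange bars gather near 100% while the green bars spread lower.

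The 53 broad anchors without a day 3 H3K27ac anchor had a higher median contact density at day 0 than the rest. Densities are in CPM per kb, where CPM is a count of PETs per 1000000 listed PETs of the library. Their median density was 56.8 and 56.1 CPM per kb in the day 0 libraries, against 39.5 and 38.8 for the 284 with a day 3 anchor. Within the 284, the median was 56.8 and 55.9 for the 48 without an ARID1A anchor. It was 37.8 and 36.99 for the 236 with anchors of both. A higher day 0 density was thus not particular to the broad anchors without day 3 H3K27ac. Of the 53, 36 did carry ARID1A anchors at day 3. In these 36 the ARID1A anchors covered a median of 95.3% of the bases, and at 31 an ARID1A anchor reached 20000 bp. Their ARID1A density was 16.9 and 17.6 CPM per kb, against 13.4 and 13.9 for the 236 with anchors of both. ARID1A contacts were thus listed over regions at which no day 3 H3K27ac anchor was called.

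Narrower anchors around these 53 were also without day 3 anchors more often. Of the 125 narrower day 0 anchors within 50 kb of them, 52 (41.6%, Wilson interval 33.3 to 50.4) had no day 3 H3K27ac anchor. Of the 560 within 50 kb of the other 284, 50 had none (8.93%, interval 6.84 to 11.6). The anchors they looped to at day 0 differed much less: 12.3% (10.2 to 14.6) of the 856 partners of the 53 had no day 3 H3K27ac anchor, against 9.92% (8.96 to 10.96) of the 3419 partners of the 284. The nearest day 3 H3K27ac anchor lay 0.509 to 84.6 kb from the 53, with a median of 14.5 kb, and 49 of the 53 had one within 50 kb. These distances were not compared with those of other regions.

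Broad anchors that lay side by side mostly shared their fate. There were 32 pairs of neighbours no more than 12.5 kb apart. In 21 pairs both kept a day 3 H3K27ac anchor, in 8 neither did, and in 3 only 1 of them did. For ARID1A the counts were 17, 10 and 5. Some broad anchors belong to more than 1 pair. Of all 337 broad anchors, 284 had a day 3 H3K27ac anchor and 272 an ARID1A anchor, so agreement in many pairs follows from these shares alone. Whether neighbours agreed more often than these shares would give was not tested. Pairs in which neither kept H3K27ac but both had ARID1A lay in 1q24.3, 12q24.31, 13q21.31, 14q22.2, 17q23.1 and 3q28, and pairs with neither in 1q42.2 and 20q13.2. These places were named after their values were seen.

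The widest broad anchors show each of these outcomes. The widest of all lay in 7q32.3 (chr7:130581119-130648327, 67208 bp). It had 220 and 232 PETs in the ARID1A libraries, 547 and 569 in H3K27ac at day 3, and 257 and 195 in H3K27ac at day 0, and was covered over 76.6% by ARID1A and over 97.9% by H3K27ac. In 8q23.2 (chr8:110599084-110663289) the counts were 214 and 228 for ARID1A, 325 and 394 for H3K27ac at day 3, and 68 and 37 at day 0. A 57149 bp anchor in 8q24.21 (chr8:127392160-127449309) had no ARID1A anchor, with 1587 and 1644 PETs for H3K27ac at day 3 and 1335 and 1103 at day 0.

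The next in width, in 1p34.3 (chr1:39604574-39659944, 55370 bp), had 290 and 341 ARID1A PETs and no day 3 H3K27ac anchor, against 371 and 283 PETs at day 0. In 9q32 (chr9:116350658-116400562) the counts were 79 and 85 for ARID1A, 768 and 759 for H3K27ac at day 3, and 217 and 201 at day 0. In 8p23.1 (chr8:6436880-6485322) they were 95 and 102, 598 and 646, and 347 and 260 in the same order of groups. In CPM, H3K27ac in 9q32 had 827 and 773 at day 3, against 719 and 793 at day 0. In 8p23.1 it had 644 and 658, against 1150 and 1026. In 1p34.3 ARID1A had 666 and 729 CPM, against 1230 and 1116 for H3K27ac at day 0. Of the 8 widest, then, 4 had all 3 kinds of anchor, and the other 4 lacked ARID1A, H3K27ac at day 3 or both.

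Of the 8 widest broad anchors without a day 3 H3K27ac anchor, 3 had no ARID1A anchor either. One in 21q21.3 (chr21:30274620-30315879) had 2774 and 2355 CPM in the day 0 libraries and no anchor in either day 3 group. The same held for 10p12.2 (chr10:22637475-22686206), with 2565 and 2481 CPM at day 0, and for 5q21.2 (chr5:103164813-103212254), with 2082 and 1949. All 3 were called at day 0 and in no day 3 library.

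Others had an ARID1A anchor alone at day 3. In 10p12.31 (chr10:21776498-21825107) ARID1A had 761 and 757 CPM and covered 97.8% of the bases, against 1979 and 2051 CPM for H3K27ac at day 0. In 12q23.3 (chr12:106494656-106539988) ARID1A had 563 and 550, against 1332 and 1349 at day 0. In 6q16.3 (chr6:104971089-105015351) ARID1A had 811 and 804, against 514 and 497 at day 0, and in 1q31.2 (chr1:192507090-192550736) 489 and 468, against 434 and 391. In the last pair of regions the ARID1A libraries were above both day 0 H3K27ac libraries, although values of different antibodies do not measure the same thing. The ARID1A anchors in 6q16.3 came to 84067 bp over a region of 44262 bp, so PETs from outside the region count there.

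**Figure D3:**
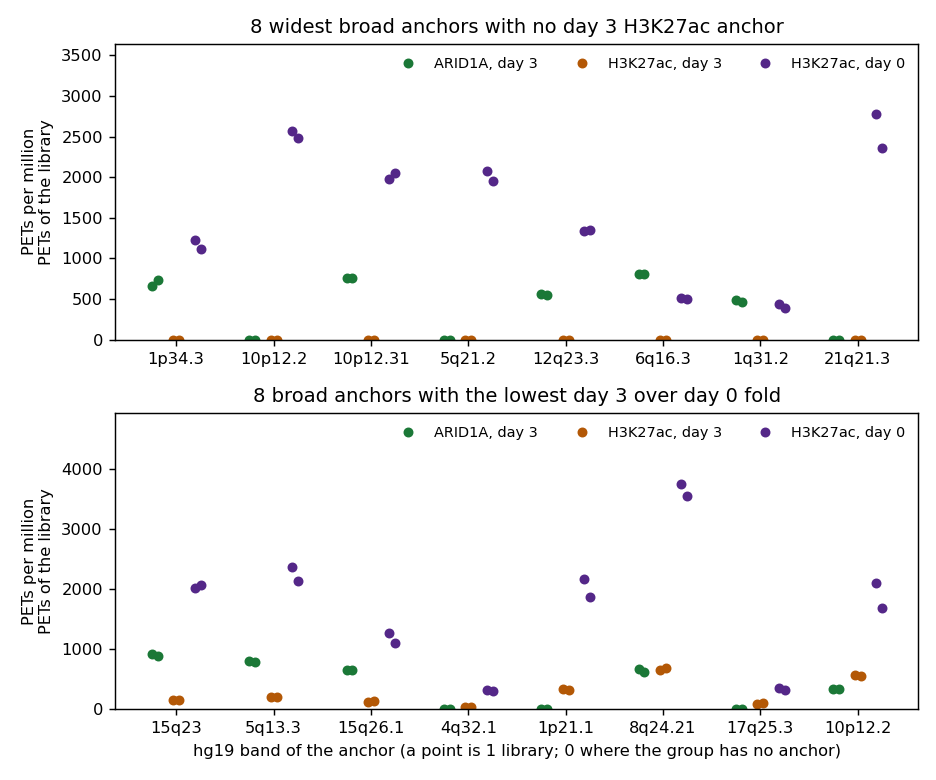
CPM (PETs per 1000000 listed PETs of the library) at the 8 widest broad anchors with no day 3 H3K27ac anchor (top) and at the 8 with the lowest H3K27ac fold of day 3 over day 0 (bottom), labelled by hg19 band, with 1 point per library. In the top panel H3K27ac at day 3 is at 0 by the choice of regions, and ARID1A lies between 468 and 811 at the 5 that have an ARID1A anchor.

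As a group the broad anchors took up a smaller part of the listed contacts at day 3. PETs with an end in a broad anchor made up 11.2% and 11.2% of the ARID1A libraries, 21.9% and 22.1% of H3K27ac at day 3, and 37.7% and 36.7% of H3K27ac at day 0. The 3 groups did not overlap. The ratio of means was 0.508 for ARID1A over H3K27ac at day 3 and 0.592 for H3K27ac at day 3 over day 0, the second of which follows in part from choosing the regions at day 0. With 2 libraries against 2, an exact two-sided permutation test cannot give a p below 0.3333, and it gave 0.3333 for the first. At 253502 PETs drawn from every library the means were 11.2%, 22.0% and 37.2%, so depth moved them little. The shares are of all listed PETs, and the lists differ in length. Merged anchors numbered 26762 for ARID1A, 17421 for H3K27ac at day 3 and 8663 at day 0. The part of list length in these shares was not tested.

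Partners, the distinct anchors at the far ends of a region's loops, were more numerous in H3K27ac at day 3 than at day 0. A broad anchor had on average 23.7 and 24.5 partners in the ARID1A libraries, 29.2 and 29.1 in H3K27ac at day 3, and 18.4 and 17.9 at day 0. At equal depth the means were 19.2, 21.4 and 17.9, with smaller gaps. With only loops of a deposited value of 0.01 or less they were 10.5, 19.2 and 10.8, so ARID1A then stood just below H3K27ac at day 0. These averages count the broad anchors without an anchor as 0. The medians per broad anchor were 26, 29 and 16.5 partners, and those per anchor of 10 to 20 kb were 22, 30 and 14.5. With all PETs, broad anchors thus had the higher median in ARID1A and in H3K27ac at day 0, and the lower one in H3K27ac at day 3. At equal depth the medians were 20, 22 and 16 for broad anchors and 17, 20 and 14 at 10 to 20 kb. Broad anchors then had the higher median in every group. The medians too count regions without an anchor as 0.

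**Figure D4:**
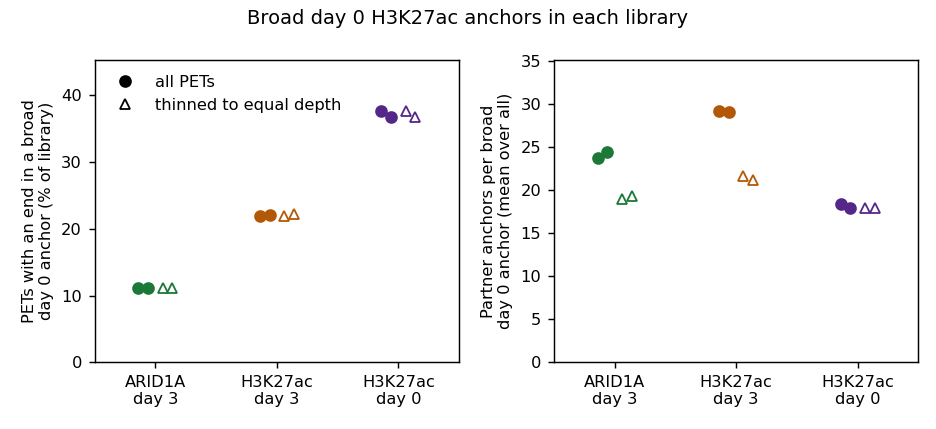
Percent of each library's PETs with an end in a broad day 0 anchor (left) and mean partner anchors per broad day 0 anchor (right), with 1 filled circle per library and open triangles after thinning every library to 253502 PETs. The share is 11.2% in ARID1A, about 22.0% in H3K27ac at day 3 and about 37.2% at day 0, while partners at equal depth lie closer together.

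Loops of broad anchors also carried more PETs each. They held 5.39 and 5.62 PETs per loop in ARID1A, 19.4 and 20.8 in H3K27ac at day 3, and 19.1 and 16.1 at day 0, while all other loops held 2.60 and 2.68, 4.79 and 5.04, and 4.62 and 4.19. PETs per loop depend on depth. At equal depth loops of broad anchors held 4.02 and 3.94 in ARID1A, 7.37 and 7.60 in H3K27ac at day 3, and 16.6 and 16.1 at day 0. Other loops then held 2.10 and 2.10, 2.52 and 2.55, and 4.18 and 4.19. Spans are medians weighted by PETs, taken from centre to centre, and leave out loops with both ends in the same broad anchor. The weighted median span of broad anchor loops was 105.6 and 105.7 kb in ARID1A, 105.2 and 104.0 kb in H3K27ac at day 3, and 79.6 and 80.9 kb at day 0. Other loops spanned 80.4 and 80.8 kb, 101.5 and 99.9 kb, and 73.0 and 76.2 kb. In ARID1A the loops of broad anchors thus spanned more than the other loops of the library by 25.2 and 24.9 kb, while the same gap was 3.74 and 4.14 kb in H3K27ac at day 3 and 6.55 and 4.64 kb at day 0. At day 3 the other loops include those of anchors outside the day 0 regions. The part of anchor width in these gaps, and in the PETs per loop, was not tested.

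Contacts of broad anchors with each other made up 11.3% and 11.2% of their PETs to other regions in ARID1A, 15.8% and 15.8% in H3K27ac at day 3, and 19.8% and 19.5% at day 0. At day 0, loops joined 263 pairs of broad anchors, which took in 214 of the 337. These are all the pairs whose centres lay within 2000 kb of each other, at a median distance of 232.5 kb, so every pair in reach was listed. Of these pairs 131 were listed for ARID1A and 185 for H3K27ac at day 3, when 188 still had H3K27ac anchors at both ends. The pairs missing at day 3 were thus mostly pairs in which an end had no day 3 anchor.

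The strongest pair at day 0 joined the 8q24.21 anchor described above to its neighbour (chr8:127458720-127495665). It was not listed in ARID1A, had 368 and 398 PETs in H3K27ac at day 3, and 600 and 501 at day 0. Pair counts are raw PETs. The day 3 H3K27ac libraries held 929128 and 982141 listed PETs, against 301703 and 253502 at day 0. A higher raw count at day 3 is thus no sign of a stronger pair. A pair in 3q22.2 (chr3:134025645-134061746 with chr3:134066604-134102518) had 34 and 27 PETs in ARID1A, 796 and 923 in H3K27ac at day 3, and 494 and 453 at day 0. A pair in 3q25.2 (chr3:154724464-154762651 with chr3:154773336-154809411) had 120 and 122, 722 and 788, and 451 and 370 in the same order.

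The other leading pairs differed in which group lacked them. In 12q14.2 (chr12:63103800-63137404 with chr12:63173735-63198251) there were 47 and 69 ARID1A PETs and 314 and 283 at day 0, but the first anchor had no day 3 H3K27ac anchor. In 2q31.1 (chr2:171008214-171039717 with chr2:171068529-171098886) the first had no ARID1A anchor, and H3K27ac had 561 and 584 PETs at day 3, against 314 and 274 at day 0. In 5q31.2 (chr5:139011553-139050352 with chr5:139059815-139083114) the pair had 77 and 80 ARID1A PETs, 498 and 565 for H3K27ac at day 3, and 323 and 252 at day 0. All 6 pairs lay 40.5 to 65.4 kb apart, centre to centre. Set against the listed PETs of each library, each of these pairs listed in H3K27ac at day 3 was lower then than at day 0.

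The next comparison asks how ARID1A contacts are spread over these regions relative to the H3K27ac contacts of the same day. The choice of regions used neither day 3 group, though it did use the same mark at day 0. PETs of loops with exactly 1 end in a region were tested with edgeR's quasi-likelihood test over all 6358 day 0 regions that had both day 3 anchors and 10 or more PETs in at least 2 libraries, with Benjamini-Hochberg adjustment over all of them. Folds are relative to the PETs of the tested regions. Of the 337 broad anchors 234 were tested, and the other 103 lacked an anchor or the PETs.

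Relative to H3K27ac, broad anchors were more often low than high in ARID1A. At an adjusted p under 0.05, 60 of the 234 (25.6%) were higher in ARID1A and 136 (58.1%) were lower, where 36.1% of all regions tested were higher and 36.5% lower. The median log2 fold change was -0.38 for the broad anchors and -0.03 for all regions. The share lower in ARID1A was 69.2% of the 65 tested at 30 to 50 kb, 54.5% of the 167 at 20 to 30 kb, 46.1% at 10 to 20 kb and 30.3% under 5 kb, while both of the 2 tested at 50 kb or more were higher. With the 2 ARID1A libraries summed as 1 sample, an alternative chosen after seeing the data, 61 were higher and 135 lower.

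The split depends on the scale. Set against all listed PETs of a library in place of those of the tested regions, 14 broad anchors were higher in ARID1A and 194 lower, with a median log2 fold change of -1.02, and over all regions 1254 were higher and 3712 lower. Called width moved with the fold as well: across the 234, the fold and the ratio of bases covered by ARID1A to bases covered by H3K27ac had a Spearman's rho of 0.47, a description. Among the 180 tested with similar covered bases, 44 were higher and 101 lower, beside 1639 higher and 1638 lower of the 4566 regions tested that way.

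**Figure D5:**
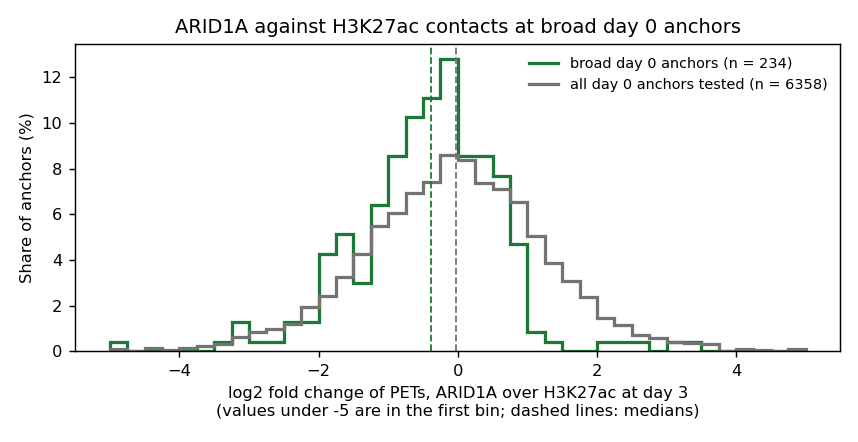
Distribution of the log2 fold change of PETs, ARID1A over H3K27ac at day 3, for the 234 broad day 0 anchors tested (green) and all 6358 day 0 regions tested (grey), as percent of each set per bin. Dashed lines mark the medians of -0.38 and -0.03, and the green line lies under the grey one between 1 and 2.

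Among the broad anchors higher in ARID1A, the one with the largest fold lay in 15q23 (chr15:67647708-67683381). ARID1A had 395 and 412 PETs there, H3K27ac at day 3 had 132 and 141, and H3K27ac at day 0 had 609 and 525. The ARID1A libraries were well above the day 3 H3K27ac libraries, with a log2 fold change of 3.28 ± 0.09 (SE, edgeR's quasi-likelihood test, adjusted p = 7.58e-115). ARID1A covered 97.0% of its bases and H3K27ac at day 3 only 26.0%, its longest anchor there being 9275 bp.

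A second, in 5q13.3 (chr5:74300258-74331350), was much the same. It had 345 and 364 PETs in ARID1A, 182 and 194 in H3K27ac at day 3, and 711 and 540 at day 0, with a log2 fold change of 2.63 ± 0.09 and with 87.0% of its bases covered by ARID1A and 2.78% by H3K27ac at day 3. In 15q26.1 (chr15:93343466-93380502), by contrast, H3K27ac at day 3 still covered every base. There the counts were 285 and 301 in ARID1A, 111 and 120 in H3K27ac at day 3, and 383 and 279 at day 0, and the log2 fold change was 3.06 ± 0.11. The high ARID1A share was thus seen both with and without a narrowed H3K27ac anchor.

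In 2p22.1 (chr2:40614853-40651369) a single ARID1A anchor of 114541 bp ran far past the broad anchor. ARID1A had 696 and 710 PETs, the highest of any broad anchor in those libraries, against 583 and 558 in H3K27ac at day 3, with a log2 fold change of 2.02 ± 0.06. In 15q22.31 (chr15:67053261-67084801) the ARID1A anchor was of similar size, 115206 bp, with 535 and 558 PETs against 941 and 925 and a log2 fold change of 0.95 ± 0.06. A PET anywhere in such an anchor counts for the region, so part of these counts comes from outside it. The rest of the 8 with the smallest p in this direction lay in 4q22.1, 12q22 and 17q24.1, with log2 fold changes of 2.33, 0.99 and 1.36.

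The broad anchors named as lower in ARID1A had high H3K27ac counts, in a ranking by p that favours them. The median broad anchor had 587 and 633 PETs in H3K27ac at day 3. In 6p22.1 (chr6:27773799-27808886) there were 79 and 72 PETs in ARID1A, 2039 and 2102 in H3K27ac at day 3, and 1059 and 948 at day 0. In CPM, H3K27ac had 2195 and 2140 at day 3, against 3510 and 3740 at day 0. ARID1A was far below H3K27ac in both libraries, with a log2 fold change of -3.06 ± 0.08 (edgeR's quasi-likelihood test, adjusted p = 4.73e-120). ARID1A covered 33.4% of this region and H3K27ac at day 3 all of it.

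In 17p11.2 a pair of broad anchors was low in ARID1A, by an amount that depended on called width. The first (chr17:17608990-17631412) had 44 and 43 PETs in ARID1A against 1435 and 1572 in H3K27ac at day 3, a log2 fold change of -3.39 ± 0.10, and the second (chr17:17711244-17733723) had 80 and 57 against 1120 and 1121, a log2 fold change of -2.31 ± 0.10. Counting only anchors with 50% or more of their bases in the region, the log2 fold changes were -1.001 and -0.46, and the longest day 3 H3K27ac anchors over them, 38595 and 42552 bp, ran past both regions. In 2p13.3 (chr2:70328249-70373138) ARID1A had 34 and 45 PETs and covered 32.0% of the bases, against 1006 and 1028 PETs and 97.2% for H3K27ac at day 3. In each of these, ARID1A anchors covered fewer bases than H3K27ac anchors did.

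Others were low in ARID1A although ARID1A covered most of their bases. In 9q34.11 (chr9:132239526-132265656), with full cover by both, ARID1A had 224 and 273 PETs and H3K27ac at day 3 had 2653 and 2868, with a log2 fold change of -1.75 ± 0.06. In 2p21 (chr2:43146449-43167659) ARID1A covered 90.6% and had 130 and 163 PETs against 2151 and 2394, a log2 fold change of -2.23 ± 0.07. The remaining named regions, in 7p15.3 and 13q32.3, had log2 fold changes of -1.86 and -1.76. Over these 16 named regions, the 230 values that the alternatives gave kept direction and call, but 4 regions had no value with 50% overlap and 6 none with similar covered bases.

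Some regions stood out by the number of partners. The broad anchor in 11q13.1 (chr11:65237243-65277746) had 51 and 47 partners in ARID1A, 101 and 93 in H3K27ac at day 3, and 58 and 56 at day 0. The 6p22.1 anchor above had 38 and 26, 86 and 86, and 56 and 56 in the same order. The next were in 17q21.32 with 29 and 40, 81 and 81, and 38 and 33, in 17q21.31 with 47 and 63, 84 and 77, and 48 and 47, in 9q34.11 with 36 and 41, 80 and 79, and 39 and 38, and in a second 6p22.1 region (chr6:27097374-27119217) with 47 and 39, 76 and 79, and 52 and 47. Each of the 6 had more partners in both day 3 H3K27ac libraries than in either library of the other groups. They were picked for their partners in those libraries, which also hold the most PETs, so this order is largely set by the choice.

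For H3K27ac at day 3 against day 0, the regions were chosen on the day 0 values, so the folds below describe them and carry no test. The same fit over the 7589 day 0 regions with a day 3 H3K27ac anchor placed 30 of 282 broad anchors (10.6%) higher at day 3 and 206 (73.0%) lower, beside 29.1% and 27.8% of all regions, and 55 did not enter it. Their median log2 fold change was -0.47, with quartiles of -0.76 and -0.15, and that of all regions 0.03. This comparison and the one with ARID1A share the day 3 H3K27ac libraries.

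The regions lowest at day 3 were the 15q23, 5q13.3 and 15q26.1 anchors already described, with log2 fold changes of -3.85, -3.53 and -3.31. Next came 4q32.1 (chr4:159691103-159722602), where H3K27ac counted 33 and 34 PETs at day 3, against 93 and 77 at day 0, and 1p21.1 (chr1:103617852-103651492), where the day 3 counts of 303 and 315 stood against 651 and 472 at day 0. Their log2 fold changes were -3.14 and -2.66, and day 3 anchors covered 21.8% and 35.9% of their bases. The 8q24.21 neighbour (chr8:127458720-127495665) counted 594 and 671 PETs at day 3, against 1133 and 898 at day 0, a log2 fold change of -2.48, with 35.6% of its bases covered. The last of the 8, in 17q25.3 (chr17:75363848-75384998) and 10p12.2 (chr10:22601413-22623013), had log2 fold changes of -1.95 and -1.80. Of these 8, 6 had day 3 anchors over 35.9% of their bases or less, while 15q26.1 and 10p12.2 were fully covered.

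The region highest at day 3 was in 2p16.1 (chr2:58807085-58828141). It had no ARID1A anchor, 2006 and 2053 PETs in H3K27ac at day 3, and 109 and 122 at day 0, a log2 fold change of 2.33 ± 0.09. Its 2 day 3 anchors, the longer of 40923 bp, came to 74711 bp over a region of 21056 bp, so PETs from outside the region count in this fold, and with 50% overlap it had no value. The anchor in 1q41 (chr1:223886609-223909751) counted 470 and 506 PETs at day 3, against 51 and 28 at day 0, a log2 fold change of 1.83. The other 6, in 15q23 (chr15:70987863-71012305), 20q13.33, 14q32.2, 8q23.2, 18q21.1 and 10q25.3, had log2 fold changes between 0.85 and 1.67. Thus band 15q23 held both the lowest anchor of all and 1 of the highest.

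Called width moved with these folds too. Across the 282, the log2 fold change and the ratio of the longest day 3 anchor to the day 0 width had a Spearman's rho of 0.30, a description. Among the 170 with a day 3 anchor of similar width over at least 80% of their bases, 28 were higher and 90 lower, with a median log2 fold change of -0.22, beside 490 higher and 558 lower of all 2385 regions so restricted. How much of the lower contact counts belongs to narrower calls was not tested beyond this.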

How the data were processed

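The deposited files list loops as anchor pairs with a whole-number count of PETs, which the authors deposited without normalisation, and a value from 0 to 1. No header names that deposited value, which could be a p-value or a q-value; it served only as an alternative threshold. HiC-Pro, Bowtie2 and hg19 are named in the submitters' processing notes. For the anchor and loop caller and its settings: not given in the sources used here. Libraries were sequenced as pairs of 150 bp, per the labels' protocols.

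Anchors were merged with pandas 2.3.3 in Python 3.11.15. CPM divides a count by the library's listed PETs. Contact counts were fitted in R 4.3.3 by edgeR 4.0.16 (quasi-likelihood, TMM scaling, 2 libraries per group), which was tested on simulated data. DESeq2 1.42.0, library totals, no count filter, leaving out each library, the replicate number as a block, width limits of 15000 and 30000 bp, stitching within 12.5 kb, thinning and 50% overlap were alternatives. Bands came from circlize 0.4.16.

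Named regions were the 8 widest, the 8 widest without a day 3 H3K27ac anchor, the 8 per direction with the largest day 3 over day 0 fold and the 8 per direction with the smallest ARID1A over H3K27ac p (libraries not overlapping in CPM). To these were added the 6 strongest pairs at day 0 and the 6 with most partners in the day 3 H3K27ac libraries. The regions and these rules were chosen with earlier results of these data known. Same-numbered libraries did not deviate together (correlations of -0.0023 and 0.0036), and the main fits did not pair them. Libraries of a group differed little beyond sampling noise, so this check cannot tell whether replicate numbers pair libraries.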

Additional observations from a re-analysis of the deposited data

How the results depend on the processing

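No value of a named region, and no median over the broad anchors, changed sign under the alternatives run. For ARID1A over H3K27ac at day 3, library totals left 14 broad anchors higher and a median log2 fold change of -1.02, a deposited value of 0.01 or less gave a median of -0.50, and requiring 50% of the loop's anchor in the region gave -0.18. For H3K27ac at day 3 over day 0, DESeq2 placed 19 higher, against 30, the value limit 17 with a median of -0.75, 50% overlap gave a median of -0.32, and similar called width left 90 of 170 lower with -0.22. With the replicate block, 60 were higher and 136 lower in ARID1A, and 28 higher and 206 lower at day 3, so it moved no count by over 1.5 times. Over all regions, DESeq2 gave 1431 higher and 1478 lower at day 3, against 2208 and 2109. The value limit gave 1153 and 1227 in ARID1A, against 2296 and 2319, and 804 lower at day 3. The 50% overlap gave 1093 and 1128 in ARID1A and 1314 higher at day 3, and similar width, which tests fewer regions, 490 and 558 at day 3.

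Without a day 3 H3K27ac anchor were 22.6% at a width limit of 30000 bp and 3.33% of the 901 regions stitched within 12.5 kb, which join several anchors. Without an ARID1A anchor were 15.2% at 15000 bp, 26.1% at 30000 bp and 5.11% when stitched. Day 3 H3K27ac anchors past the limit were at 60.9% (30000 bp) and 48.4% (stitched), and ARID1A anchors at 68.2% (15000 bp), 49.6% (30000 bp) and 47.6% (stitched). Mean partners in ARID1A were 19.2 thinned, 10.5 under the value limit, 24.8 and 24.7 at 15000 and 30000 bp, and 20.9 with 50% overlap. In H3K27ac at day 3 they were 21.4, 19.2, 30.8, 26.96 and 27.2 in the same order, and at day 0 10.8 under the value limit. Shares of PETs under the value limit, at 15000 and at 30000 bp were 21.1%, 17.8% and 4.72% in ARID1A, 35.8%, 32.4% and 8.91% in H3K27ac at day 3, and 59.9%, 51.4% and 18.0% at day 0, and with 50% overlap 9.31% in ARID1A and 20.3% in H3K27ac at day 3. The cause of these shifts was not tested.

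Leaving out each library in turn gave 52 to 57 higher, 126 to 145 lower and medians of -0.48 to -0.36 in ARID1A, and 24 to 33 higher, 171 to 202 lower and medians of -0.53 to -0.39 at day 3. Single libraries gave 23.7 to 24.5 partners and 11.2% to 11.2% of PETs in ARID1A, 29.1 to 29.2 and 21.9% to 22.1% in H3K27ac at day 3, and 17.9 to 18.4 and 36.7% to 37.7% at day 0. With 1 day 0 library choosing the regions, 15.7% to 15.8% had no day 3 H3K27ac anchor, 19.3% to 19.3% no ARID1A anchor, 77.1% to 77.2% a day 3 H3K27ac anchor and 57.1% to 57.3% an ARID1A anchor of 20000 bp or more. Of 213 values of the named day 3 over day 0 regions, 210 kept direction and call, and 3 lost the call, all under the value limit: 1.05 in 15q23 (chr15:70987863), 0.59 in 8q23.2 and 0.44 in 10q25.3. In ARID1A the 230 values that could be had kept both. Folds that moved by over 1.5 times were, with library totals, 0.31 in 15q22.31, 0.35 in 12q22 and 0.72 in 17q24.1, and under the value limit 2.24 in 17q24.1, -3.90 in 17p11.2 (chr17:17711244), and at day 3 -5.87 in 4q32.1 and -4.85 in 17q25.3. Of the 55 broad anchors not compared between days, 53 had no day 3 H3K27ac anchor and 2 had too few PETs.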
